A study of Mus musculus with 6 samples.

Results

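The genes described here belong to the amino acid and integrated stress response. They are the transcription factors Atf4, Atf5, Ddit3 and Cebpb, the amino acid genes Asns, Psat1, Phgdh and Slc3a2, and the endoplasmic reticulum (ER) stress genes Herpud1 and Xbp1. Every probe set whose single annotated gene was 1 of these 10 was taken, which gave 22 of the 22690 probe sets on the array. Of these, 21 had a mean log2 value above 4 and were tested, and the remaining one, a dim Atf4 probe set, was not. A further 2 probe sets listed for Phgdh together with another gene were left out by the same rule.

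The RNA came from mouse cochlear nucleus, the first central station of hearing, taken on postnatal day 21. Tetrodotoxin (TTX), a blocker of voltage-gated sodium channels, had been infused into 1 cochlea for 24 h by osmotic pump. The nucleus of the infused side (ipsilateral, 3 arrays) was compared with that of the opposite side in mice given the same pump (contralateral, 3 arrays), and each array held pooled tissue of 10 to 12 mice. Untreated mice were not measured, so a difference can come from either side, and in bulk tissue fewer cells of a type and less RNA per cell cannot be told apart.

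The integrated stress response starts with phosphorylation of the translation factor eIF2alpha by kinases that sense amino acid shortage, unfolded proteins, viral RNA or lack of haem. General translation then drops, while translation of Atf4 messenger RNA increases because of upstream open reading frames, so ATF4 protein can change without its messenger RNA. ATF4 is a bZIP factor that binds CARE elements (C/EBP-ATF response elements) together with C/EBP partners and induces genes for amino acid synthesis and transport. Neurons and glia both carry the pathway, and astrocytes are the main site of serine synthesis in the brain. The arrays measure messenger RNA and do not report eIF2alpha phosphorylation, ATF4 protein or Xbp1 splicing.

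The promoter windows of all 10 genes were in RefSeq (12 windows, build GRCm38.p6, 250 bases before to 50 after the start). The CARE core TGATGNAA, searched on both strands, lay in the windows of 2 genes, Asns and Herpud1, and in 3.97% of all 32851 windows. The ER stress element ERSE-II (ATTGG and CCACG, 1 base apart) lay in that of Herpud1 and in 0.0365% of all windows, and its first letters are also a CCAAT box on the reverse strand. The longer ER stress element ERSE (CCAAT and CCACG, 9 bases apart, 0.119% of all windows) and the cyclic AMP response element TGACGTCA (1.79%) lay in none of the 12. CCAAT boxes lay in the windows of 6 genes (37.4% of all windows), and the Asns element NSRE-2, GTTACA, in that of Asns (8.25%). The windows of 3 genes are shown for their elements and because they belong to the factor with the largest side difference and to both genes with a CARE core. Each runs 5′ to 3′ from 250 bases before the start to 10 bases after it, with the CARE core and NSRE-2 of Asns, the CARE core, ERSE-II and CCAAT box of Herpud1, and the CCAAT boxes of Atf4 in capitals.
Asns, chr6:7693200-7693459, minus strand: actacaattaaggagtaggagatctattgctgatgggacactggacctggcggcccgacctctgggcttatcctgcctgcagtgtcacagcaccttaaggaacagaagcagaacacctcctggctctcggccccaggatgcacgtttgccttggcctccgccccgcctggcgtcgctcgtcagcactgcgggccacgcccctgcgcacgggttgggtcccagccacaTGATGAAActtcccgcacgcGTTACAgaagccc
Herpud1, chr8:94386179-94386438, plus strand: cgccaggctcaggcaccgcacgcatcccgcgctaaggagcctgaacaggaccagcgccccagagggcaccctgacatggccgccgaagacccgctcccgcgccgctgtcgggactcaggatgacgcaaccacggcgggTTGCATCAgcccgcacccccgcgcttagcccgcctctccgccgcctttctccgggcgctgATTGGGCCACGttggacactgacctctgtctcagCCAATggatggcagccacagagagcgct
Atf4, chr15:80254934-80255193, plus strand: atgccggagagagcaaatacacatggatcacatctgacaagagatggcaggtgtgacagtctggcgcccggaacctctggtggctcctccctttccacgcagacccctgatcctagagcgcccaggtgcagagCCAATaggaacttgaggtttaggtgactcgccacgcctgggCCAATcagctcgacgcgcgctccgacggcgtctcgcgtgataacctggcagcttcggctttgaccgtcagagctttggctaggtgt
The CARE core of Asns covers bases -23 to -16 and that of Herpud1, on the reverse strand, bases -112 to -105 from the start. The ERSE-II of Herpud1 covers bases -52 to -42. A match is a description of these letters and not a measured binding site.

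Across the family the side differences were small. Atf4 had the single tested probe set whose arrays separated by side, its brightest, which read 1.24-fold lower ipsilaterally. This was 1 of 21 probe sets, beside 3.44% of all probe sets that separated with the infused side lower. The other tested Atf4 probe set overlapped. Ddit3, which encodes CHOP, and Atf5 had slightly higher means on the infused side, and the amino acid genes Asns, Psat1 and Phgdh differed by at most 0.06 in either direction (log2). By brightest probe set, 7 of 10 genes had a lower mean on the infused side and 3 a higher one, and the median log2 difference was -0.08, beside -0.003 over all 8754 named genes tested, of which 50.9% were lower. No member probe set passed the Benjamini-Hochberg adjusted threshold of 0.05 in limma (0 of 21, beside 0% of all 15298 probe sets tested). At an unadjusted p under 0.05 limma gave 1 of 21, lower on the infused side, beside 2.38% of all probe sets in either direction and 1.22% lower. With the replicate number as a block it was also 1 of 21, beside 3.72% of all probe sets. The pools are described as biological replicates.

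**Figure D1:**
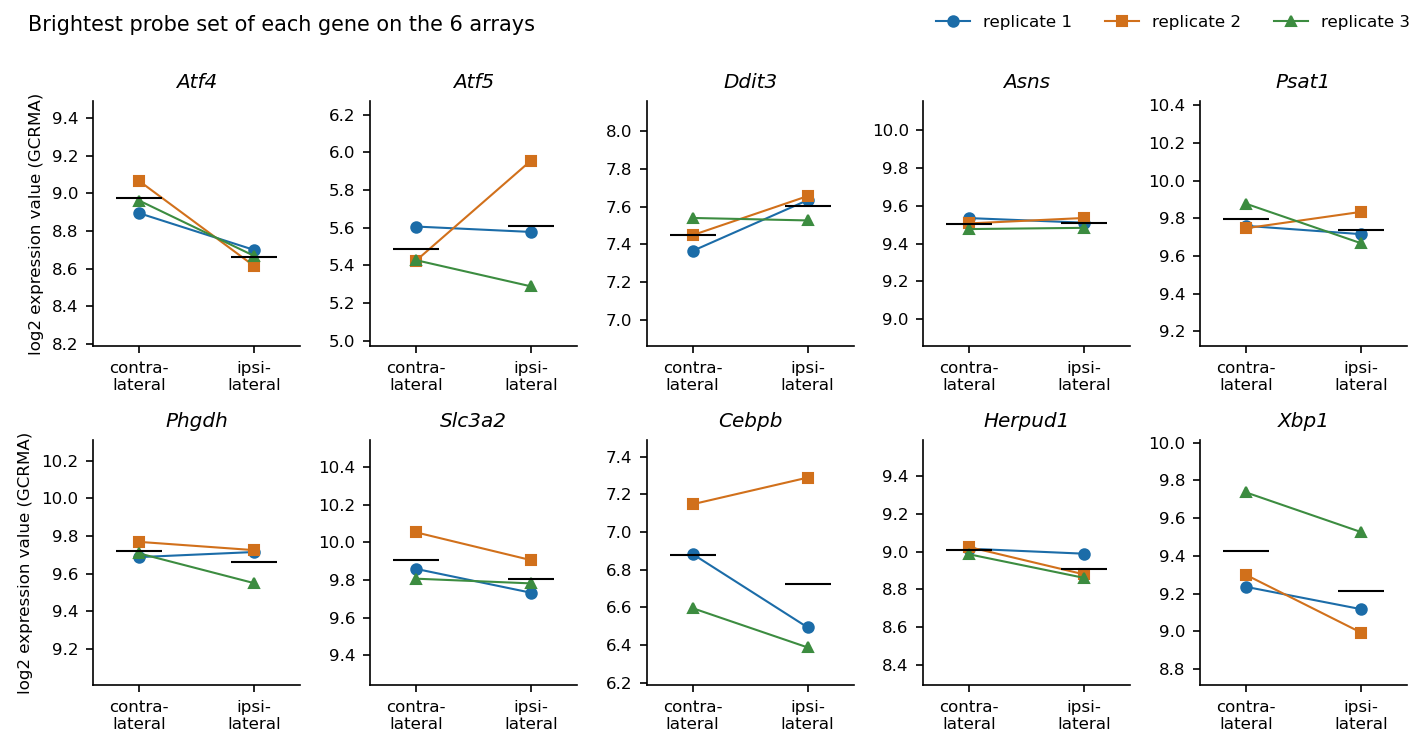
Log2 expression value (vertical axis, spanning 1.3 in every panel) of the brightest probe set of each of the 10 genes on the contralateral and ipsilateral arrays. Lines join same-numbered replicates and black bars are side means of 3 arrays. Atf4 separates by side, while replicate 3 is the highest on both sides in Xbp1 and replicate 2 in Cebpb.

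Atf4 encodes the factor through which the eIF2alpha kinases act on transcription. Its brightest probe set (1448135_at) measured 8.89, 9.07 and 8.96 on contralateral arrays 1, 2 and 3 and 8.70, 8.61 and 8.67 on ipsilateral arrays 1, 2 and 3 (log2). All ipsilateral arrays lay below all contralateral ones, as they did for 1 of 21 member probe sets and 3.44% of all probe sets. The means were 8.97 ± 0.09 and 8.66 ± 0.04 (SD, n = 3 each), a difference of -0.31 (SE 0.09, 95% interval -0.53 to -0.10). In limma its unadjusted p was 0.0109 and its adjusted p 1.00, and 79 probe sets had a smaller p. The exact two-sided permutation p was 0.1, the smallest that 3 against 3 arrays allow. Within replicates 1, 2 and 3 the infused side was lower by 0.20, 0.45 and 0.29. Without replicate 2 of both sides the difference was -0.24 and its unadjusted limma p 0.0972, so the unadjusted call ended. It also ended for the mean of both tested Atf4 probe sets, at -0.24 with an unadjusted limma p of 0.0536.

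The other tested Atf4 probe set (1438992_x_at) carries the suffix that Affymetrix gives to sets whose probes may cross-hybridise with other transcripts. It measured 8.90, 8.83 and 8.42 contralaterally and 8.62, 8.71 and 8.32 ipsilaterally, so the sides overlapped. The infused side was again lower in 3 of 3 replicates, by 0.28, 0.13 and 0.10, and the mean difference was -0.17 (SE 0.17). Replicate 3 was the lowest on both sides, a feature that the brightest set did not share. The dim set (1439258_at), with a mean of 3.97 and no test, measured 4.33, 3.93 and 4.07 contralaterally and 3.88, 3.98 and 3.63 ipsilaterally.

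Markers of other cells in the tissue were measured on the same arrays. The 9 tested of 12 microglia and macrophage markers were 9 of 9 higher on the infused side, while 50.9% of all genes were lower. At an unadjusted limma p under 0.05 there were 3 of 9, all higher, beside 1.11% of all genes that were higher. None passed after adjustment (0% of all genes). The mean of these markers ranged over the contralateral arrays from 7.07 to 7.32 and over the ipsilateral ones from 7.34 to 7.42. It thus separated by side, narrowly, as the brightest Atf4 probe set did, and its part in the Atf4 result was not tested. The 11 tested of 15 choroid plexus markers were 11 of 11 lower in mean on the infused side, with a median difference of -0.90. At an unadjusted limma p under 0.05 there were 0 of 11, beside 1.33% of all genes that were lower. These markers averaged 7.84, 7.59 and 7.11 on contralateral arrays 1, 2 and 3 and 8.83, 4.91 and 5.05 on ipsilateral arrays 1, 2 and 3. Atf4 was 0.20, 0.45 and 0.29 lower on the infused side in replicates 1, 2 and 3. The smallest drop was in replicate 1, whose ipsilateral array had the highest choroid plexus mean of the 6. With the choroid plexus mean as a covariate, in a fit of 6 arrays, the Atf4 difference was -0.30 (SE 0.11). The part of choroid plexus tissue in the Atf4 result was not tested. Neuron markers (16 of 18 tested, 8 higher and 8 lower) averaged 10.13 to 10.37 contralaterally and 10.15 to 10.46 ipsilaterally, and astrocyte markers (11 of 11 tested, 9 higher) 10.26 to 10.42 and 10.40 to 10.43. All 7 tested oligodendrocyte markers were higher, at 12.89 to 13.04 contralaterally and 13.01 to 13.11 ipsilaterally, so those ranges overlapped. Vascular endothelial markers (10 of 11 tested, 7 lower) averaged 7.19 to 7.25 contralaterally and 7.08 to 7.24 ipsilaterally, and meningeal and mural markers (12 of 12 tested, 8 lower) 7.16 to 7.32 and 7.09 to 7.19. Cerebellar markers (10 of 12 tested, 6 higher and 4 lower) averaged 9.76 to 10.14 and 9.64 to 10.15. Of these, 1 of 10 had an unadjusted limma p under 0.05 and was lower, beside 1.33% of all genes that were lower. The parts of these cell types in the member results were not tested. Cochlear nucleus markers (7 of 13 tested, 4 higher and 3 lower) averaged 6.98 to 7.10 contralaterally and 6.99 to 7.12 ipsilaterally. Among them were Atoh7 (9.55 and 9.51), a marker of bushy cells, and Kcna1 (10.94 and 11.07), a low-threshold potassium channel of auditory neurons. The hindbrain factors Hoxb5 and Hoxb3 were too dim to test, while Hoxa3 was among the 7 tested.

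Ddit3 encodes CHOP, a bZIP factor induced by ATF4 that promotes cell death under lasting ER stress. It measured 7.37, 7.45 and 7.54 contralaterally and 7.63, 7.66 and 7.53 ipsilaterally. Ipsilateral array 3 lay just below contralateral array 3, so the sides overlapped by that pair alone. The mean difference was 0.15 (SE 0.09, 95% interval -0.07 to 0.38), with an unadjusted limma p of 0.145 and an adjusted p of 1.00. Its within-replicate differences were 0.27, 0.21 and -0.01.

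Atf5, a bZIP factor translated under stress by a mechanism like that of Atf4, was dim. It measured 5.61, 5.42 and 5.43 contralaterally and 5.58, 5.96 and 5.29 ipsilaterally. Ipsilateral array 2 alone stood above the contralateral range, and the difference of 0.12 (SE 0.17) turned to -0.05 without that array. Its values within replicates were -0.03, 0.53 and -0.14.

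Cebpb encodes a C/EBP factor that pairs with ATF4 on CARE elements and is also active in inflammation. Its brighter probe set (1418901_at) measured 6.88, 7.15 and 6.60 contralaterally and 6.49, 7.29 and 6.39 ipsilaterally. Replicate 2 was the highest and replicate 3 the lowest on both sides, and the range over the 6 arrays, 0.90, was the largest among the brightest probe sets of the 10 genes. The side difference was -0.15 (SE 0.26, 95% interval -0.77 to 0.47), and within replicate 2 the infused side was the higher one, by 0.14. The second set (1427844_a_at) measured 5.41, 5.82 and 5.33 contralaterally and 5.34, 5.39 and 5.25 ipsilaterally, a difference of -0.19 (SE 0.15) with the infused side lower in 3 of 3 replicates. Without contralateral replicate 2 that difference was -0.04. The high level in replicate 2 thus appeared on both sides in one set and mainly on the contralateral side in the other.

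Asns, asparagine synthetase, is a standard transcriptional readout of ATF4. Its brighter probe set (1433966_x_at) measured 9.53, 9.51 and 9.48 contralaterally and 9.51, 9.54 and 9.48 ipsilaterally. The 6 arrays spanned 0.06, the narrowest range of the 21 tested probe sets, and the side difference was 0.004 (SE 0.08, 95% interval -0.19 to 0.20). The other set (1451095_at) measured 9.18, 9.27 and 9.30 contralaterally and 9.14, 9.21 and 9.33 ipsilaterally, a difference of -0.02 (SE 0.09). The 95% intervals leave room for a change of up to 1.15-fold in the brighter set and 1.19-fold in the other.

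Phgdh and Psat1 encode phosphoglycerate dehydrogenase and phosphoserine aminotransferase, the opening enzymes of serine synthesis from glucose. The brightest Phgdh probe set (1454714_x_at) measured 9.69, 9.77 and 9.71 contralaterally and 9.71, 9.72 and 9.55 ipsilaterally, a difference of -0.06 (SE 0.09). The other 3 sets differed by 0.05, -0.02 and -0.04, and all 4 carry the suffix for possible cross-hybridisation. The brighter Psat1 set (1454607_s_at) measured 9.76, 9.75 and 9.88 contralaterally and 9.72, 9.83 and 9.67 ipsilaterally, a difference of -0.06 (SE 0.09). The second set (1451064_a_at) differed by -0.02 (SE 0.10). The infused side was higher in replicate 2 and lower in replicates 1 and 3 in both Psat1 sets. Psph, the phosphatase that completes the pathway and is named for that role after its values were seen, differed by -0.01.

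Slc3a2 encodes the CD98 heavy chain, which carries amino acid transporters such as the Slc7a5 light chain to the plasma membrane. It measured 9.86, 10.05 and 9.81 contralaterally and 9.73, 9.91 and 9.78 ipsilaterally. The infused side was lower in 3 of 3 replicates, by 0.13, 0.15 and 0.02, and the sides overlapped. The difference was -0.10 (SE 0.11, unadjusted limma p 0.379), and -0.03 without contralateral replicate 2. Slc7a5 differed by 0.24 (SE 0.24), with contralateral SD 0.48 and ipsilateral SD 0.15.

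Herpud1 encodes a membrane protein of ER-associated degradation that is induced by unfolded proteins. Its brighter probe set (1448185_at) measured 9.02, 9.02 and 8.99 contralaterally and 8.99, 8.88 and 8.86 ipsilaterally. Ipsilateral array 1 stood level with the lowest contralateral array, and the other two lay below the contralateral range. The infused side was lower in 3 of 3 replicates, and the difference was -0.10 (SE 0.09, unadjusted limma p 0.290). The second set (1435626_a_at) measured 8.87, 9.09 and 8.92 contralaterally and 8.97, 8.71 and 8.87 ipsilaterally, a difference of -0.11 (SE 0.11) in which replicate 1 went the other way by 0.09.

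Xbp1 encodes the bZIP factor whose messenger RNA is spliced by IRE1 when unfolded proteins gather in the ER. Its brightest probe set (1437223_s_at) measured 9.24, 9.30 and 9.74 contralaterally and 9.12, 8.99 and 9.53 ipsilaterally. Replicate 3 was the highest on both sides, and within replicates the infused side was lower by 0.12, 0.31 and 0.21. The side difference of -0.21 had an SE of 0.19 and an unadjusted limma p of 0.302, and with the replicate number as a block an SE of 0.09 and an unadjusted limma p of 0.0611 (adjusted p = 0.991 in limma). It was -0.05 without contralateral replicate 3 and -0.10 without ipsilateral replicate 2, and -0.37 without ipsilateral replicate 3.

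The second Xbp1 set (1420886_a_at) measured 8.47, 8.72 and 9.36 contralaterally and 8.61, 8.33 and 9.12 ipsilaterally, a difference of -0.16 (SE 0.28). The third (1420011_s_at) measured 7.90, 8.21 and 8.34 contralaterally and 7.79, 7.84 and 8.25 ipsilaterally, a difference of -0.19 (SE 0.17). Replicate 3 was the highest on both sides in these sets too. The dimmest (1420012_at) measured 5.30, 5.24 and 5.58 contralaterally and 5.30, 5.34 and 5.30 ipsilaterally, so the high value of replicate 3 appeared on the contralateral side alone. The probe sets of a gene read the same RNA and are not replicates of one another, and none is known here to tell spliced from unspliced Xbp1.

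**Figure D2:**
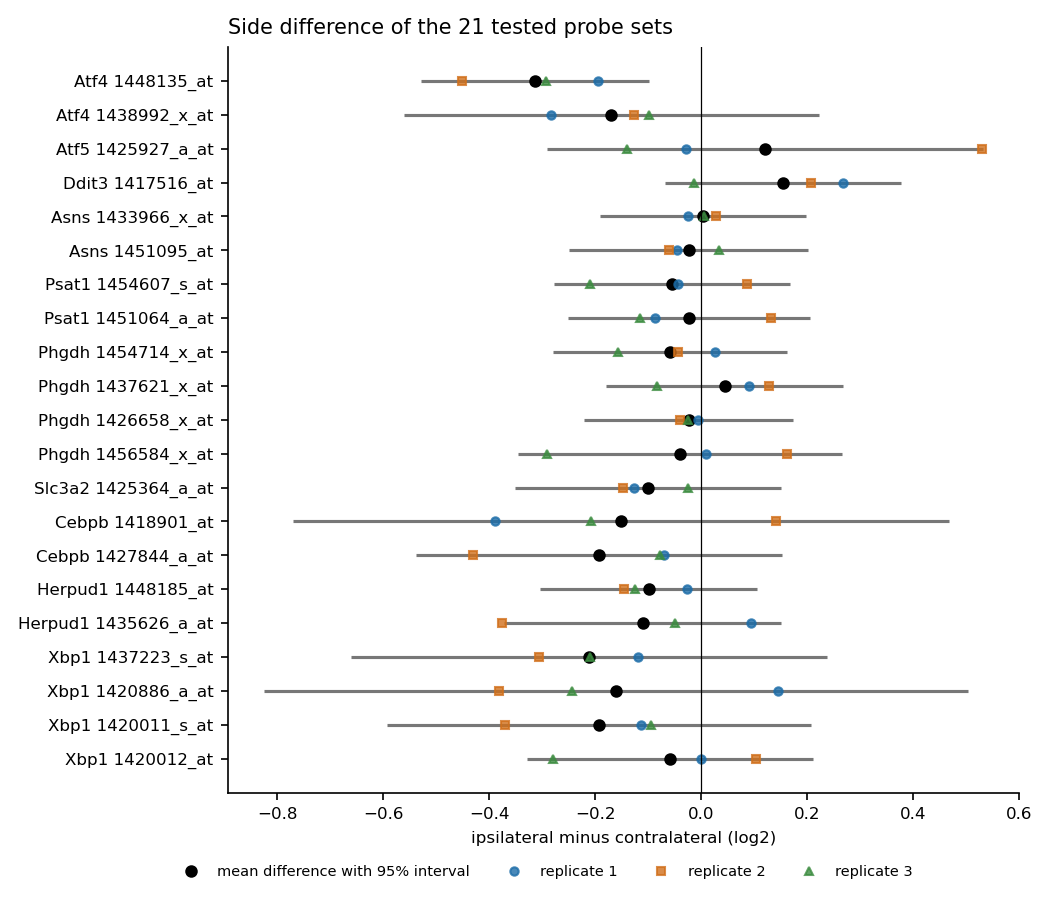
Ipsilateral minus contralateral difference (log2, horizontal axis) of the 21 tested probe sets. Black points are mean differences over 3 arrays per side with the 95% interval of the limma fit without a replicate block, and coloured symbols are within-replicate differences. The interval of Atf4 1448135_at (-0.53 to -0.10) is the one that leaves out 0.

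Most member means were lower on the infused side. Of the 21 tested probe sets, 17 had a lower mean on the infused side, beside 51.8% of all probe sets. The infused side was lower in 3 of 3 replicates in 8 of 21 (beside 13% of all probe sets) and higher in 3 of 3 in 0 of 21 (beside 10.7%). Those 8 belong to 6 genes, Atf4, Phgdh, Slc3a2, Cebpb, Herpud1 and Xbp1, and the Atf4 and Xbp1 sets count more than once. Phgdh entered through 1426658_x_at alone (difference -0.02) and Cebpb through its dimmer set alone. The brightest sets of Phgdh and Cebpb were mixed in sign over the replicates. These counts were not tested, since the sets of a gene share RNA and all sets share arrays.

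The intervals give the precision of the differences as read by the probe sets, and do not bound the change of the messages themselves. In the fit without a replicate block, the 95% interval of 17 of 21 probe sets lay within a 1.5-fold change in either direction. The interval furthest from 0 reached -0.83 (log2), in Xbp1 1420886_a_at. Among the brightest probe sets, 8 of 10 genes lay within 1.5-fold in that fit, and the exceptions were Cebpb and Xbp1. With the replicate number as a block, these 2 intervals were narrower, at -0.49 to 0.19 in Cebpb 1418901_at and -0.44 to 0.01 in Xbp1 1437223_s_at. That of Xbp1 1420886_a_at was then -0.50 to 0.18, and all of these lay within 1.5-fold. The block widened others, among them Atf4 1448135_at (from -0.53 to -0.10 without the block to -0.56 to -0.07 with it). Herpud1 1435626_a_at likewise went from -0.37 to 0.15 to -0.43 to 0.21. The block takes same-numbered samples as paired. These intervals are those of single probe sets and are not adjusted for their number.

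Replicate number and side contributed unequally to the spread of most members. The sum of squares of each probe set over the 6 arrays was divided into the part between sides, the part between replicate numbers and the remainder. The replicate part exceeded the side part in 16 of 21 member probe sets, beside 80.25% of all probe sets. The median member had 50.8% of its spread between replicate numbers and 15.7% between sides, against 50.9% and 8.61% over all probe sets, where replicate numbers have more degrees of freedom than sides. In Xbp1 1437223_s_at the replicate part was 79.6% and the side part 18.0%, and in Cebpb 1418901_at they were 84.0% and 5.15%. Atf4 1448135_at showed the reverse, with 1.11% between replicate numbers and 88.8% between sides, and Ddit3 had 4.70% and 59.0%. With replicate number as a term beside side, 5 of 21 member probe sets had an unadjusted limma p under 0.05, of which 3 were Xbp1 sets and the others Cebpb 1418901_at and Atf4 1438992_x_at, beside 12.4% of all probe sets. None of the 21 passed after adjustment (0% of all probe sets).

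**Figure D3:**
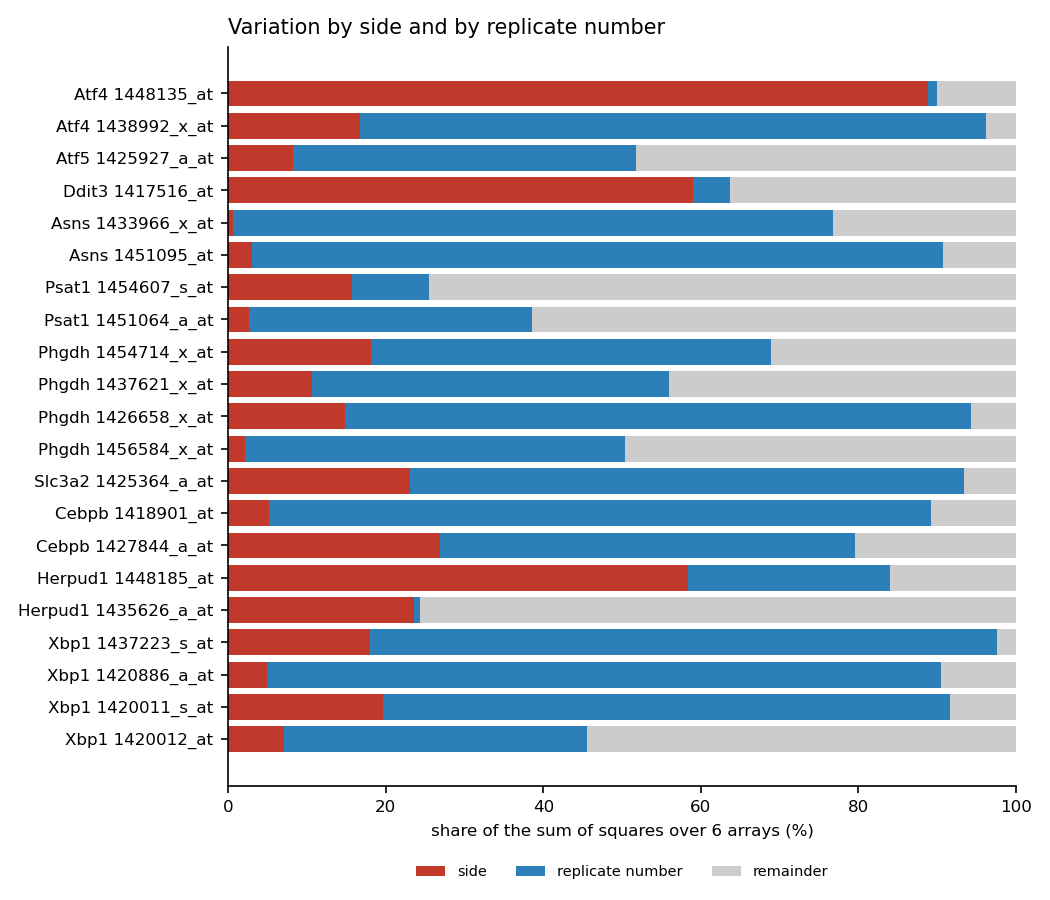
Share of the sum of squares over the 6 arrays (%, horizontal axis) that lies between sides (red), between replicate numbers (blue) and in the remainder (grey), for the 21 tested probe sets. Side takes 88.8% in Atf4 1448135_at, and replicate number takes 79.6% in Xbp1 1437223_s_at.

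The wider pathway was read through 8 lists, with 137 genes bright enough to test. Of these 67 had a higher and 70 a lower mean on the infused side, with a median difference of -0.006, and 0 of 137 passed the adjusted threshold in limma (0% of all 8754 genes). At an unadjusted limma p under 0.05 there were 3 of 137, 2 higher and 1 lower, beside 2.43% of all genes (1.11% higher and 1.33% lower). All 3 came from the list of other ATF4 and CHOP targets. The arrays of the sides did not overlap in 5 of 137 genes that were lower on the infused side, Cth among them, and in 4 of 137 that were higher, Ddit4, Gadd45a and Aldh18a1 among them, beside 3.88% and 2.74% of all genes.

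Among those other targets 9 of 19 tested were higher and 10 lower, with a median of -0.007. Ddit4, a stress-induced inhibitor of mTORC1, differed by 1.39 (SE 0.25), and Gadd45a, a growth arrest gene, by 0.73 (SE 0.15). Cth, cystathionine gamma-lyase, measured 5.51 ± 0.13 contralaterally and 5.18 ± 0.05 ipsilaterally (SD, n = 3 each) and was lower on the infused side by 0.33, with an unadjusted limma p of 0.0138 (adjusted p 1.00). Trib3 (mean 3.33) and Fgf21, responsive ATF4 targets, were too dim to test.

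Upstream of Atf4, the list of eIF2alpha kinases, eIF2 and its phosphatases had 7 of 16 genes higher and 9 lower, with a median of -0.01. Eif2ak3, the ER stress kinase PERK, differed by 0.16 (SE 0.11), and Eif2ak2, the kinase PKR that senses double-stranded RNA, by 0.21 (SE 0.14). Impact, an inhibitor of the amino acid sensing kinase GCN2, differed by -0.20 (SE 0.10). Among bZIP partners and other stress transcription factors 7 of 13 were higher, with Creb3l2 at -0.25 (SE 0.13), Cebpd at -0.27 (SE 0.24) and Atf6b at -0.09 (SE 0.10). Atf3, a rapidly induced bZIP partner, was too dim to test. Leaving out both arrays of replicate 2 turned the count of 7 higher to 0, leaving out its ipsilateral array gave 2 and its contralateral array 3.

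Of the amino acid and one-carbon synthesis enzymes 7 of 16 were higher, with a median of -0.009. Aldh18a1, which makes a proline precursor, differed by 0.25 (SE 0.11, unadjusted limma p 0.0536). Srr, serine racemase, differed by 0.24 (SE 0.14), and Got1, an aspartate aminotransferase, by -0.17 (SE 0.10). Of the amino acid transporters 3 of 11 were higher and 8 lower, with a median of -0.08. Those 3 were Slc1a5, a neutral amino acid exchanger, at 0.48 (SE 0.24, with ipsilateral SD 0.51), Slc1a4 at 0.12 (SE 0.09) and Slc7a5. The count of higher transporters was 7 without contralateral replicate 1 and 6 without replicate 1 of both sides. Slc7a11, the cystine transporter, was too dim to test at a mean of 3.89. Of the aminoacyl-tRNA synthetases, which load amino acids onto transfer RNAs, 10 of 18 were higher, with a median of 0.004. Tars differed by 0.16 (SE 0.10), Cars by 0.15 (SE 0.13) and Sars by -0.19 (SE 0.17).

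The ER arm was likewise mixed. Of its chaperones and folding enzymes 9 of 21 were higher, with a median of -0.02. Hspa5, the chaperone BiP, named for its role after its values were seen, differed by -0.12. Uggt1, a folding sensor, differed by 0.30 (SE 0.26), the secreted factor Manf by -0.20 (SE 0.18) and Dnajb11 by 0.12 (SE 0.13). Of the sensors, degradation and translocation genes 15 of 23 were higher, with a median of 0.02, and leaving out ipsilateral replicate 2 made it 9, and leaving out both arrays of replicate 2 made it 8. Ern1, which encodes IRE1, the enzyme that splices Xbp1, was dim at 4.12 ± 0.13 contralaterally and 3.90 ± 0.11 ipsilaterally (SD, n = 3 each). The translocation genes Sec61a1 and Ssr3 differed by 0.17 (SE 0.11) and 0.13 (SE 0.13).

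**Figure D4:**
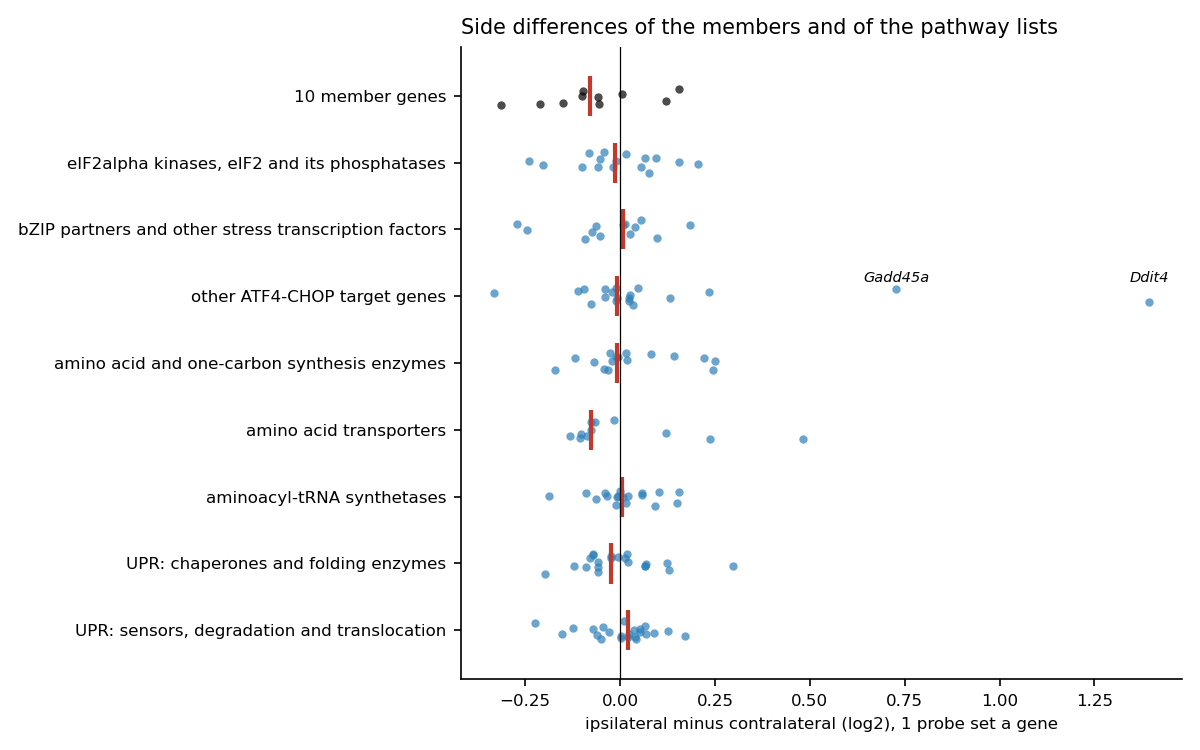
Ipsilateral minus contralateral difference (log2, horizontal axis) of the 10 member genes (black) and of the tested genes of 8 pathway lists (blue), 1 probe set a gene, with the median of each row in red. Row medians lie between -0.08 and 0.02, and Ddit4 (1.39) and Gadd45a (0.73) are the points beyond 0.6.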

How the data were processed

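Messenger RNA was measured on 6 arrays, 3 per side of the cochlear nucleus, grouped and numbered by the sample descriptions. The deposited values are log2 expression per probe set (scale read from their range) and come from GCRMA, per the submitters' processing notes, in a version not given in the sources used here. GCRMA compresses differences of dim probe sets, and normalization between arrays removes a change shared by most genes. Probe sets were named by the repository's platform annotation, and those with 1 symbol (20393 of 22690) were checked against RefSeq of GRCm38.p6. Control probe sets (64) and those whose mean log2 value did not exceed 4 (7328) were left out, and 15298 were tested.

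Ipsilateral minus contralateral differences were fitted with limma 3.58.1 (lmFit, eBayes; R 4.3.3), with Benjamini-Hochberg adjustment over all probe sets tested and a threshold of 0.05. The fit was tested on simulated data with noise independent between arrays. The adjusted threshold recovered 66.7% of log2 changes of 1 and 94.2% of changes of 2, and 5.11% of calls were false. Changes as small as those of the members (at most 0.31 in size) were not simulated. In lists, the brightest tested probe set stood for a gene. Named genes were all members and up to 3 genes per list by smallest p, and Psph, Hspa5, the cochlear nucleus markers and the genes given as too dim to test were named for their roles, outside that rule. A likeness rule asked for a range of at least 1 over the arrays in a member's brightest probe set, which 0 of 10 had. The members and lists were chosen with earlier results of these data known, and the fit of replicate number as a term was added after the values were seen.

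Per the design text, 1 cochlea per mouse was infused and pools were made by replicate, so same-numbered samples were read as both sides of the same mice. After centring each side, the correlation within a number across probe sets was 0.09, 0.04 and 0.57, and across unlike numbers it ran from -0.37 to 0.30, so the pairing rests on the design text. Alternatives were a replicate block, other filters, quantile normalization, median centring, a trended robust variance, weights per array, an unmoderated equal-variance test, choroid plexus level as a covariate, the mean of a gene's probe sets, and leaving out arrays.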

Additional observations from a re-analysis of the deposited data

How the results depend on the processing

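The 21 member differences were recomputed under 8 to 10 other settings that kept all arrays, giving 196 values. Of these 195 kept their direction and side of the adjusted threshold, and the Asns difference (brighter probe set) turned to -0.0099 when both its probe sets were averaged. No setting, leaving out arrays included, brought a member past the threshold in limma (smallest adjusted p 0.991), so the count of 0 held, and the count at an unadjusted limma p under 0.05 was 1 in each fit of single probe sets except without replicate 2 of both sides (0). With a gene's probe sets averaged, a count chosen after the data were seen, it was 0 of 10 genes (smallest p 0.0536, Atf4). The replicate number as a block changed no call among the members. Over the fits without an array or a pair, 10 probe sets changed direction at least once. Their differences ranged from -0.084 to 0.28 in Atf5, -0.011 to 0.018 and -0.077 to 0.020 in Asns, -0.13 to 0.021 and -0.10 to 0.023 in Psat1, and -0.14 to 0.087 in Phgdh 1456584_x_at. They ranged from -0.43 to 0.016 in Cebpb 1418901_at, -0.21 to 0.023 in Herpud1 1435626_a_at, -0.38 to 0.10 in Xbp1 1420886_a_at and -0.14 to 0.052 in Xbp1 1420012_at. Among those that kept their direction, Atf4 1448135_at ranged from -0.37 to -0.24 and 1438992_x_at from -0.32 to -0.056, Ddit3 from 0.097 to 0.24, Slc3a2 from -0.15 to -0.026, Cebpb 1427844_a_at from -0.29 to -0.041, Herpud1 1448185_at from -0.14 to -0.074, and Xbp1 1437223_s_at and 1420011_s_at from -0.37 to -0.055 and -0.34 to -0.097. Of the lists, the bZIP partners had 11 of 17 genes higher with no filter and 4 of 13 with the choroid plexus covariate (0 to 9 when leaving out arrays), and the transporters 6 of 17 with no filter (3 to 7). The sensor and degradation genes ranged from 8 to 16. The causes of these moves were not tested, except that the unfiltered counts hold more genes. Precision is limited by the number of arrays. GCRMA compresses differences of dim probe sets, and whether it did so for Atf5 (mean 5.55) was not tested.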
